A study of Homo sapiens with 4 samples.

Results

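The ID genes and other direct target genes of bone morphogenetic protein (BMP) signalling were examined upon TXNDC9 knockout. The 10 genes are ID1, ID2, ID3, ID4, HAMP, SMAD6, SMAD7, SMAD9, BAMBI and ATOH8, and each was found by its symbol, on 1 line, among the 57979 gene lines that held values. They were chosen by their place in the pathway and by the FPKM difference between knockout and wild-type libraries, which was known from an earlier look at these data, so that difference is given as a description and carries no p-value. The data are 4 libraries of polyadenylated RNA from cells labelled HepG2, a human liver cancer cell line, grown in DMEM with fetal bovine serum. The WT group holds 2 wild-type libraries and the TXNDC9-KO group holds 2 libraries of cells in which TXNDC9, a thioredoxin domain protein, had been targeted with CRISPR-Cas9. The guides were carried by a lentiviral Cas9 vector. The labels give neither the guide used in each library nor whether the knockout cells were 1 clone. The study speaks of independent experiments for its RNA-seq, but in another number than the libraries used here, and the labels do not say that the libraries of a group came from separate cultures, so the spread between them may be technical. Values are FPKM, the fragments mapped to a gene per kilobase of transcript, scaled for the size of the library in a way that is not given. The depth of each library is therefore unknown, and no counting interval can be given.

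Several facts of the whole table bear on these genes. TXNDC9 itself stood at 35.1 and 37.3 FPKM in the WT libraries and at 21.9 and 27.6 FPKM in the TXNDC9-KO libraries, so its mRNA was present in both groups (a Cas9 cut need not remove the mRNA). Its log2 difference was −0.55 as deposited, which was not called, and 0.12 under the rescaling to TPM described below, so no direction is given for it. The defining genes of the labelled cell type were missing. Of the 8 hepatocyte and HepG2 markers ALB, AFP, TTR, SERPINA1, APOA1, APOB, HNF4A and FOXA2, 0 reached a mean of 1 FPKM, the highest value in any library was 0.449 FPKM (AFP), and 2 were listed at 0 in all 4 libraries. The label HepG2 is therefore kept here only as a label. Summed over all genes, the FPKM values came to 805816 and 971102 in the WT libraries and to 535973 and 568279 in the TXNDC9-KO libraries. Giving all libraries an equal sum (TPM) added 0.67 to the log2 difference of the median tested gene, so smaller falls than this change sign under it. The log2 difference also followed the length and GC content of the transcript across tested genes, which are not independent replicates (Spearman correlation 0.495 with length and −0.462 with GC content). Both facts are given beside the results they touch.

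BMPs are secreted ligands that join type I and type II receptor kinases at the cell surface. The active receptors phosphorylate SMAD1, SMAD5 and SMAD9, which enter the nucleus with SMAD4 and bind DNA at short GC-rich and GTCT-containing sites. The ID genes are among the most direct targets. Their products are helix-loop-helix proteins that lack a basic region, so they pair with E proteins and keep them from binding DNA, and they are known for holding cells in a proliferating and less differentiated state. SMAD6, SMAD7 and BAMBI are targets that inhibit the pathway in turn. In hepatocytes the same pathway drives HAMP, which encodes the iron hormone hepcidin.

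The reference sequence upstream of these genes shows what such sites look like, and the following stretches are printed because they hold the longer SMAD motifs in the genes described here. In the 3000 bases before the RefSeq start of each gene, read from hg38, 3 motifs were searched on both strands. The GC-rich SMAD site GGCGCC was found upstream of 9 of the 10 genes, all but SMAD9, but also upstream of 42.9% of 27305 RefSeq genes. The palindrome GTCTAGAC was found upstream of 2 of the 10, SMAD6 and SMAD7, and upstream of 1.79% of all. The composite element GGCGNCNNNNNGTCT, in which a GC-rich part and GTCT stand 5 bases apart, was found upstream of 2 of the 10, ID1 and ID3, and upstream of 1.01% of all. In ID3 the composite overlaps the GGCGCC match. A match is a description of the letters and not a measured binding site. Capitals mark the motif letters, and each line reads 5′ to 3′ on the strand of the gene.
ID1: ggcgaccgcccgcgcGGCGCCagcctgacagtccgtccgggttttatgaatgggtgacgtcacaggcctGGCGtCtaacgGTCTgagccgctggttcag
ID3: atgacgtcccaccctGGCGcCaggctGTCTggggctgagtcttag
SMAD6: cggagccgccaaagtGTCTAGACtggc
SMAD7: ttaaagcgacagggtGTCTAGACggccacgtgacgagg
The ID1 stretch (chr20:31604309-31604407, plus strand) begins 980 bases before the start and overlaps an exon of an annotated gene without a symbol. The ID3 stretch (chr1:23562434-23562478, minus strand) begins 2977 bases before the start and lies in no annotated gene. The SMAD6 stretch (chr15:66702209-66702235, plus strand) ends at the base before the start, and the SMAD7 stretch (chr18:48952203-48952240, minus strand) begins 1275 bases before it.

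Among the ID genes, 3 of 4 were abundant in the WT libraries and far lower upon TXNDC9 knockout. ID1 (ENSG00000125968, chr20:31605283-31606515) stood at 603 and 729 FPKM in the WT libraries and at 57.2 and 65.9 FPKM in the TXNDC9-KO libraries. ID3 (ENSG00000117318, chr1:23557926-23559501), its close relative, stood at 687 and 838 FPKM in the WT libraries and at 92.5 and 98.2 FPKM in the TXNDC9-KO libraries. For both genes every knockout value lay far below every wild-type value. ID2 (ENSG00000115738, chr2:8678845-8684461) stood at 47.3 and 43.97 FPKM in the WT libraries and at 8.48 and 9.96 FPKM in the TXNDC9-KO libraries, again with no overlap. ID2 shares 145 exonic bases with the antisense gene ID2-AS1 (at most 0.507 FPKM in any library), and since the use of strand in counting is not given, their reads cannot be told apart there. ID4 (ENSG00000172201, chr6:19837370-19842197) was listed at 0 in all 4 libraries, and no fold can be given for it.

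The means of ID1 were 666 ± 89.6 FPKM in WT and 61.5 ± 6.15 FPKM in TXNDC9-KO (SD, n = 2), a 10.8-fold difference. Those of ID3 were 762 ± 107 and 95.4 ± 4.04 FPKM (SD, n = 2), a 7.99-fold difference, and those of ID2 were 45.6 ± 2.37 and 9.22 ± 1.05 FPKM (SD, n = 2), a 4.95-fold difference. On the log2(FPKM + 0.1) scale of the limma fit, the differences between TXNDC9-KO and WT were −3.43 for ID1 (standard error 0.15), −2.99 for ID3 (0.15) and −2.30 for ID2 (0.12). Ordered by log2 difference among the 13246 genes with a mean above 1 FPKM, ID1 had the 42nd largest fall, ID3 the 63rd and ID2 the 151st. The difference between the replicates of a group was small beside these values, at most 0.29 on the log2 scale (ID3 in WT). In the level of WT cells, ID1 and ID3 stood above 98.4% and 98.7% of the tested genes, and ID2 above 78.6%.

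**Figure D1:**
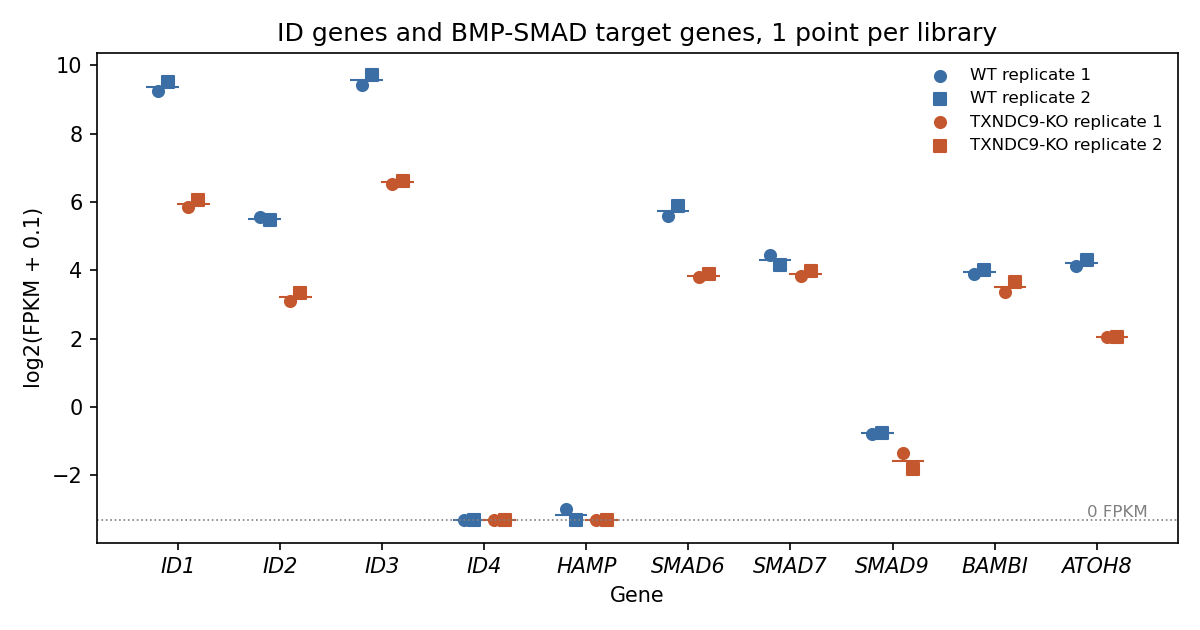
Level of each of the 10 genes as log2(FPKM + 0.1), with 1 point per library (blue WT, orange TXNDC9-KO) and short lines at the group means. ID1, ID2, ID3, SMAD6 and ATOH8 stand well apart between the groups, SMAD7 and BAMBI lie close together, SMAD9 is below 0.5 FPKM in every library, and ID4 and HAMP lie at or near 0.

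ID1 and ID3 did not keep their proportion. The ratio of ID1 to ID3 FPKM, which does not depend on how a library is scaled, was 0.877 and 0.871 in the WT libraries and 0.618 and 0.671 in the TXNDC9-KO libraries. The ratio of ID1 to ID2 was 12.7 and 16.6 in the WT libraries and 6.74 and 6.62 in the TXNDC9-KO libraries. In both ratios the groups did not overlap, so as deposited ID1 was the most reduced of the ID genes relative to ID2 and ID3. These ratios were not corrected for length and GC content. After the correction described below, the log2 differences lay closer together, at −2.59 for ID1, −2.19 for ID3 and −2.04 for ID2.

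The inhibitory SMADs differed from each other. SMAD6 (ENSG00000137834, chr15:66702236-66782849), which blocks mainly the BMP branch, stood at 48.4 and 58.3 FPKM in the WT libraries and at 13.8 and 14.8 FPKM in the TXNDC9-KO libraries. SMAD7 (ENSG00000101665, chr18:48919853-48950965), which blocks both the BMP and the TGF-beta branch, stood at 21.8 and 17.8 FPKM in the WT libraries and at 14.2 and 15.6 FPKM in the TXNDC9-KO libraries. The groups did not overlap for either gene, but for SMAD7 the gap between them was narrower than the distance between the WT libraries. The log2 difference was −1.89 for SMAD6 (standard error 0.13, 3.73-fold) and −0.40 for SMAD7 (standard error 0.14, 1.33-fold). The ratio of SMAD6 to SMAD7 FPKM was 2.22 and 3.28 in the WT libraries and 0.974 and 0.946 in the TXNDC9-KO libraries. SMAD6 was thus the more abundant inhibitory SMAD in the WT libraries, and the FPKM of the pair were nearly equal in the TXNDC9-KO libraries.

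ATOH8 (ENSG00000168874, chr2:85751344-85791383), a basic helix-loop-helix factor that responds to BMP signalling in liver, stood at 17.3 and 19.8 FPKM in the WT libraries and at 4.02 and 4.06 FPKM in the TXNDC9-KO libraries. Its log2 difference was −2.17 (standard error 0.12, 4.59-fold). BAMBI (ENSG00000095739, chr10:28677510-28682932), a receptor-like protein without a kinase that dampens TGF-beta and BMP receptors, stood at 14.7 and 15.9 FPKM in the WT libraries and at 10.1 and 12.4 FPKM in the TXNDC9-KO libraries. Its log2 difference was −0.45 (standard error 0.13, 1.36-fold), close to that of SMAD7.

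The other 2 genes were scarcely expressed. SMAD9 (ENSG00000120693, chr13:36844831-36920887), the third receptor-regulated SMAD of the BMP branch, stood at 0.479 and 0.494 FPKM in the WT libraries and at 0.293 and 0.186 FPKM in the TXNDC9-KO libraries. HAMP (ENSG00000105697, chr19:35280716-35285143) was listed at 0.0259 FPKM in WT replicate 1 and at 0 in the other 3 libraries. The hepcidin gene was thus practically silent in all 4 libraries, as were the 8 hepatocyte markers. SMAD9, HAMP and ID4 did not reach the mean of 1 FPKM needed for the fit across all genes.

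Of the 7 genes that reached that mean, 5 (ID1, ID2, ID3, SMAD6 and ATOH8) were called lower at an adjusted p under 0.01 and at least 2-fold, and 0 were called higher. Over all tested genes 15.3% were called lower and 14.2% higher. Because the genes were chosen with this contrast known, nothing is read from that count. Rescaled to TPM, the log2 differences were −2.75 for ID1, −2.31 for ID3, −1.62 for ID2, −1.50 for ATOH8 and −1.21 for SMAD6, and the same 5 genes were called lower. SMAD7 and BAMBI changed sign under this rescaling, to 0.27 and 0.23, so no direction is given for them.

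**Figure D2:**
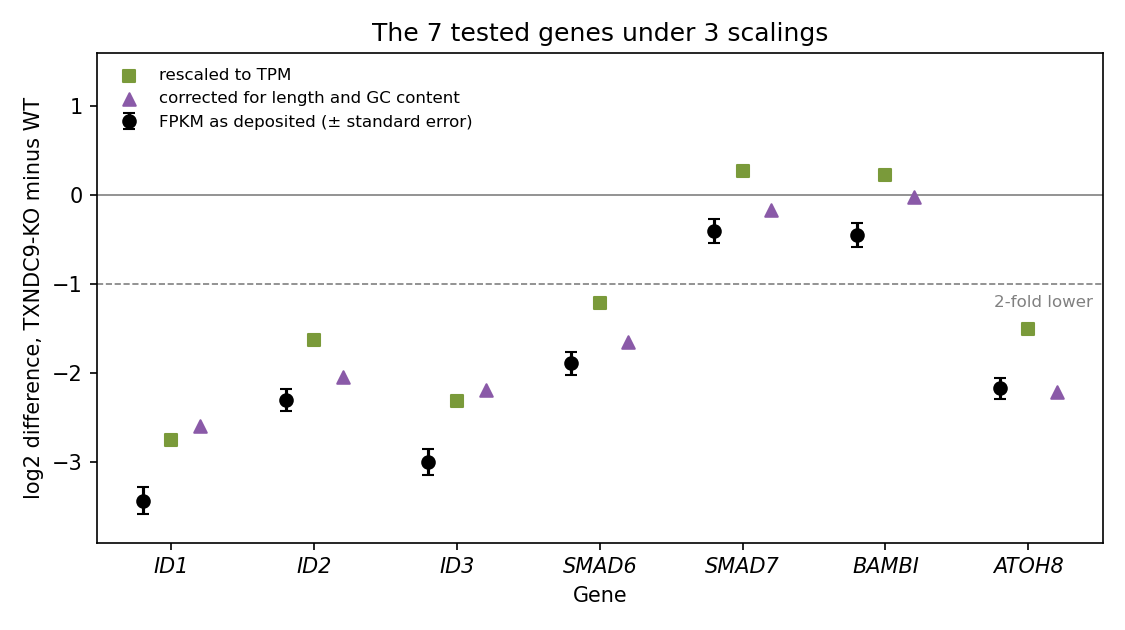
Log2 difference between TXNDC9-KO and WT for the 7 tested genes, from FPKM as deposited (black, bars show the standard error of the limma fit), after rescaling to TPM (green squares) and after correcting for length and GC content of the transcript (purple triangles). ID1, ID2, ID3, SMAD6 and ATOH8 stay below the dashed 2-fold line under all 3 scalings, while SMAD7 and BAMBI lie on both sides of 0.

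The genes differ in transcript length, which moved with the log2 difference over the whole table. The canonical transcripts of ID1, ID3 and ID2 are short (983, 950 and 1299 nt), while those of SMAD6 and ATOH8 are 3828 and 5658 nt, above the median of 2866.5 nt of tested genes. SMAD6 and ATOH8 are GC-rich (58.8% and 57.3%), as are ID1 and ID3 (57.9% and 56.7%), and ID2 is not (42.5%, median of tested genes 48.5%). After each library was corrected for length and GC content, the log2 differences were −2.59 for ID1, −2.19 for ID3, −2.04 for ID2, −2.21 for ATOH8 and −1.64 for SMAD6. The correction brought ID1 and ID3 closer to the others and moved ATOH8 by less than 0.1. The same 5 genes were called lower, and the values of SMAD7 and BAMBI were −0.17 and −0.02.

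**Figure D3:**
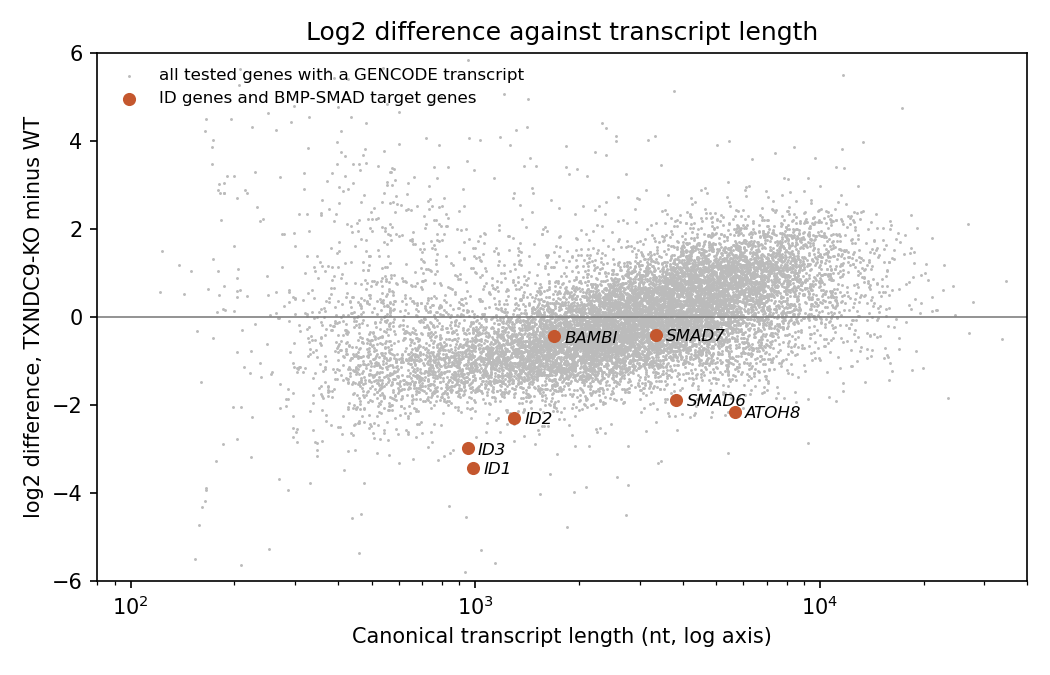
Log2 difference between TXNDC9-KO and WT against canonical transcript length (log axis) for 13100 tested genes in grey, with 12 genes outside the axes, and the 7 tested BMP target genes in orange. ID1, ID2 and ID3 lie low in the cloud, SMAD6 and ATOH8 lie low among longer transcripts, and SMAD7 and BAMBI lie within it. Ranked by fall among tested genes, ID1 was 42nd and SMAD6 329th, so other genes fell further.

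The remaining genes of the pathway were taken from 10 lists written by function, with the 10 genes above left out. All 125 listed genes were in the table and 82 were tested. Of these, 12 were called lower and 22 called higher upon TXNDC9 knockout, against 15.3% called lower and 14.2% called higher among all genes. In the counts of genes below, fell and rose stand for called lower and called higher. The median log2 difference was 0.40, against −0.09 over all genes tested. Under TPM the counts were 2 lower and 40 higher, beside 447 lower and 4380 higher among all 13246 genes tested. After the correction for length and GC content they were 6 lower and 7 higher, beside 969 lower and 841 higher among 13112 genes. The counts of each list are therefore given below under all 3 scalings, to be read against these backgrounds.

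Among the BMP ligands, 4 of 12 were tested and 4 were listed at 0 in every library. Of the 4 tested, 1 was called lower and 0 called higher (0 and 1 under TPM, 1 and 0 after the correction). BMP4 and BMP8B lay above WT in both TXNDC9-KO libraries (log2 difference 0.61 and 0.67), but neither was called as deposited. BMP6, the ligand known for inducing hepcidin, fell from 17.2 and 18.6 FPKM to 6.23 and 5.98 FPKM, with a log2 difference of −1.54 (standard error 0.11, limma Benjamini-Hochberg adjusted p = 5.12e-04). It kept −1.44 after the correction, where it was still called, and −0.86 under TPM, where it was not. BMP2, which the WT libraries expressed at a similar level, was at 21.5 and 17.6 FPKM in WT and at 20.5 and 19.5 FPKM in TXNDC9-KO, so the groups overlapped (log2 difference 0.04, standard error 0.13). Among the secreted antagonists and modulators, 3 of 8 tested genes fell and 1 rose, while under TPM 1 was called lower and 3 higher, and after the correction 2 lower and 0 higher. NOG, which encodes the BMP trap noggin, fell from 4.62 and 6.12 FPKM to 0.503 and 1.08 FPKM (log2 difference −2.68, standard error 0.37, limma Benjamini-Hochberg adjusted p = 0.00165), and it was called under TPM and after the correction too. BMPER, another secreted BMP-binding protein, fell from 1.94 and 1.42 FPKM to 0.395 and 0.461 FPKM (log2 difference −1.74), and it was called after the correction (−2.34) but not under TPM (−1.18). NBL1 fell from 37.1 and 43.7 FPKM to 19.7 and 19.7 FPKM, and its log2 difference of −1.03 came to −0.35 under TPM and −0.15 after the correction, where it was not called. TLL1, which encodes a protease that cleaves the antagonist chordin, rose by 1.57 on the log2 scale, and by 0.66 after the correction, where it was not called.

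The called genes among the receptors and SMAD transducers were all higher. ENG, the most abundant of the receptors and co-receptors, was lower but missed the 2-fold threshold. It went from 34.8 and 41.4 FPKM to 20.1 and 22.1 FPKM (log2 difference −0.85, standard error 0.13, limma Benjamini-Hochberg adjusted p = 0.00223). Its value was −0.17 under TPM and −0.23 after the correction. Of 6 tested receptors and co-receptors, 2 rose and 0 fell (3 higher under TPM and 1 after the correction, with 0 lower in both). BMPR1A, a type I BMP receptor, rose from 4.36 and 3.59 FPKM to 15.002 and 15.9 FPKM (log2 difference 1.94, standard error 0.14, limma Benjamini-Hochberg adjusted p = 5.12e-04), and it was still called after the correction, at 1.07. BMPR2, the type II receptor, rose by 1.24 on the log2 scale, but its value was 0.10 after the correction. The hepcidin co-receptor HJV was listed at 0.0696 FPKM in WT replicate 1 and at 0 in the other libraries.

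Of the 5 SMAD transducers, 4 rose and 0 fell (5 higher under TPM and 3 after the correction, with 0 lower in both), with a list median of 1.73 (2.41 under TPM and 1.001 after the correction). SMAD4, the shared partner of all receptor-regulated SMADs, rose from 8.57 and 7.59 FPKM to 34.6 and 37.1 FPKM (log2 difference 2.14, standard error 0.11, limma Benjamini-Hochberg adjusted p = 4.86e-04). SMAD1 rose from 2.45 and 1.81 FPKM to 6.75 and 7.73 FPKM, and SMAD5 from 5.10 and 5.67 FPKM to 17.7 and 18.7 FPKM. SMAD3, of the TGF-beta branch, rose by 1.43 on the log2 scale. After the correction SMAD1 (1.53), SMAD4 (1.16) and SMAD3 (1.001) were still called, and SMAD5 (0.74) was not. The canonical transcripts of SMAD5 and SMAD4 are 7013 and 8772 nt long. Both TXNDC9-KO libraries thus held less ID1 and ID3 mRNA and more SMAD1, SMAD5 and SMAD4 mRNA than either WT library, and no protein or phosphorylation was measured.

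Among 18 tested intracellular regulators of SMAD signalling, 2 fell and 3 rose. Under TPM 0 were called lower and 9 higher, and after the correction 3 lower and 0 higher, so the balance of this list turned with the scaling. PMEPA1, a feedback inhibitor of TGF-beta signalling, fell by 1.39 on the log2 scale and by 1.51 after the correction, and it was not called under TPM (−0.72). STUB1, a ubiquitin ligase, fell by 1.39, but it was called neither under TPM (−0.72) nor after the correction (−0.36). PPM1A and USP15, which encode a phosphatase and a deubiquitinase, were, of the 3 scalings, called lower only after the correction, at −1.09 and −1.69, against −0.00423 and −0.44 as deposited. SKIL (1.15), LEMD3 (1.43) and USP9X (1.47) rose on the log2 scale, and none of the 3 was called after the correction. TCF3, TCF4 and TCF12 encode the E proteins that ID proteins bind, and 2 of the 3 rose, 2 under TPM and 0 after the correction. TCF3, the most abundant, was at 76.9 and 82.1 FPKM in WT and at 42.2 and 41.3 FPKM in TXNDC9-KO, a log2 difference of −0.93 that missed the 2-fold threshold. The value of TCF3 was −0.25 under TPM and −0.61 after the correction. TCF12 rose from 6.47 and 5.94 FPKM to 15.1 and 13.9 FPKM, and TCF4 rose from 0.889 and 0.753 FPKM to 2.77 and 3.81 FPKM, but neither was called after the correction. Summed, ID1 to ID3 FPKM were 15.9 and 18.1 times the E protein FPKM in the WT libraries and 2.63 and 2.95 times in the TXNDC9-KO libraries. These ratios are from FPKM as deposited and were not corrected for length and GC content. They set the short ID transcripts against E protein transcripts of 4735 nt (TCF3), 8041 nt (TCF4) and 6114 nt (TCF12).

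**Figure D4:**
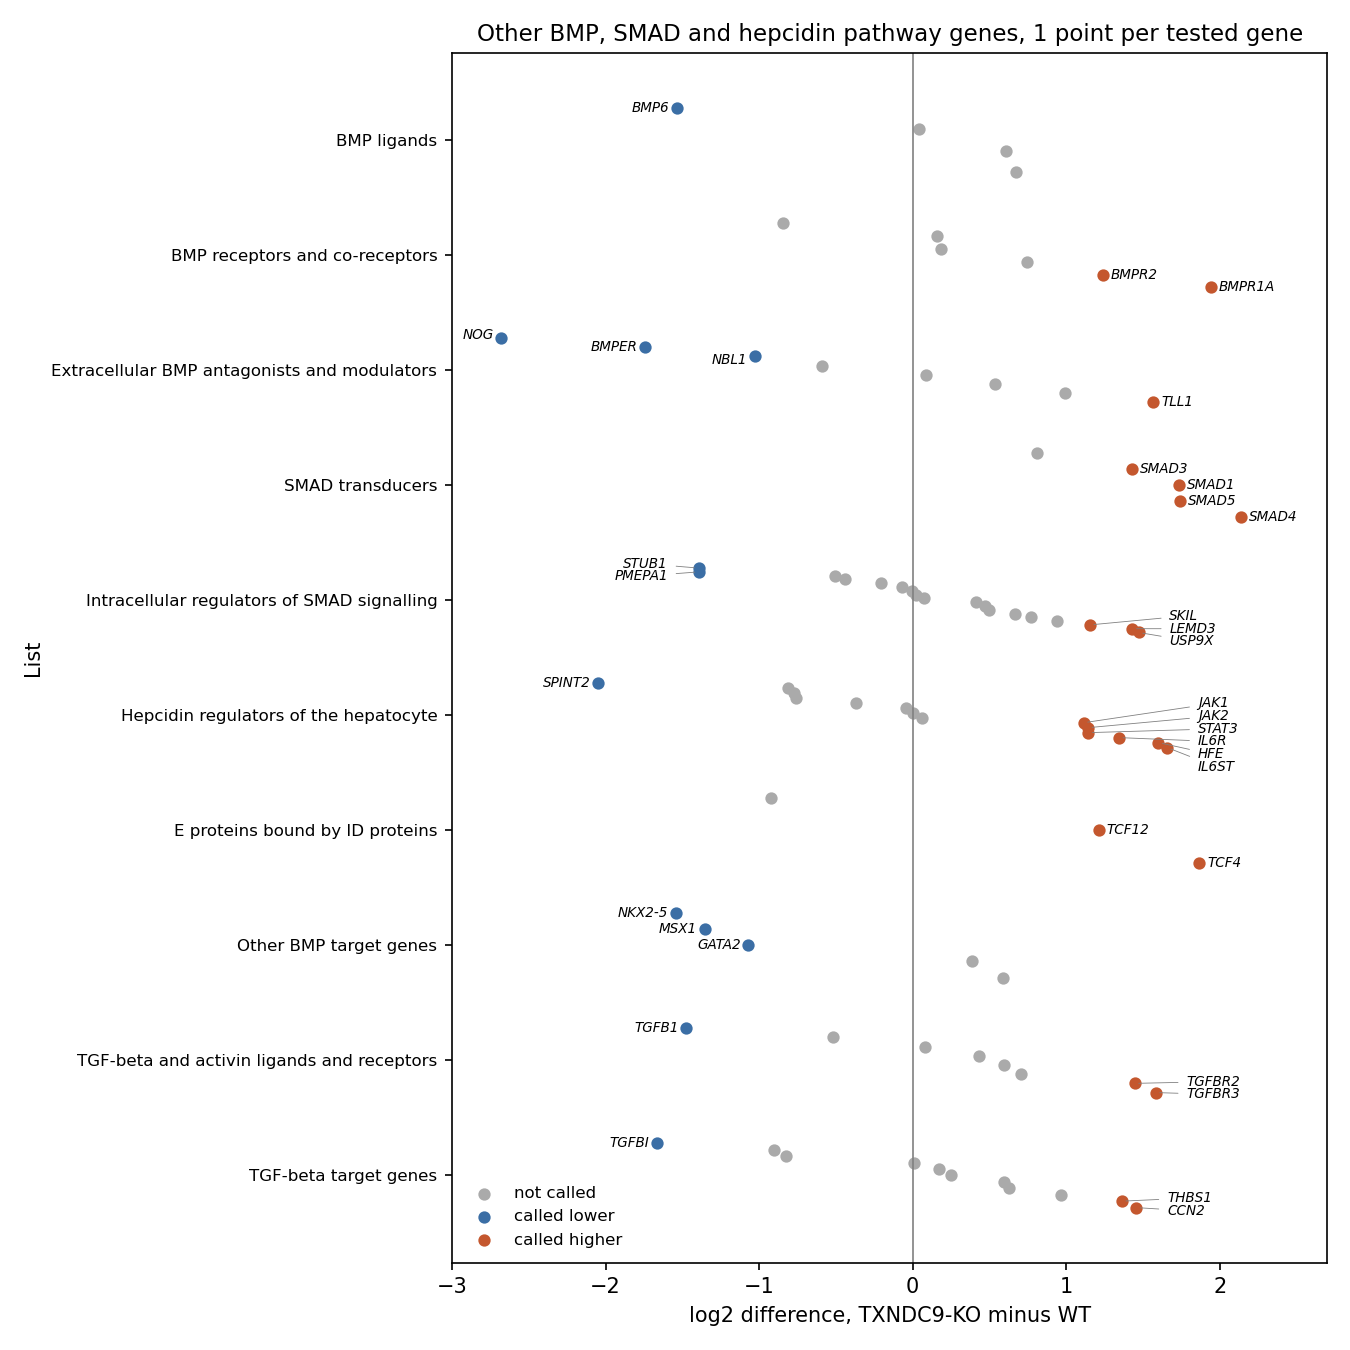
Log2 difference between TXNDC9-KO and WT (FPKM as deposited) for the 82 tested genes of 10 pathway lists, with called genes named, blue lower and orange higher, and grey not called. The SMAD transducers lie at the right, with 4 of 5 called higher, and the 3 called genes among the other BMP targets lie at the left.

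Other BMP target genes, known mainly from development, were tested for 5 of 12. NKX2-5, MSX1 and GATA2, all transcription factors, were called lower, by 1.54, 1.36 and 1.07 on the log2 scale, and 0 were called higher. NKX2-5 went from 6.64 and 7.42 FPKM to 2.33 and 2.36 FPKM, and MSX1 from 6.80 and 7.55 FPKM to 2.72 and 2.76 FPKM. None of the 3 was called under TPM, where 2 other genes of the list were called higher and the list median was −0.39 against 0.59 over all genes, or after the correction, where it was −0.48 against −0.05. Those 2 were TBX3 and PRDM1, at 15.9 and 10.6 FPKM and at 4.03 and 4.03 FPKM in WT. In TXNDC9-KO they were at 17.04 and 16.98 FPKM and at 6.02 and 6.17 FPKM. They thus lay above WT without overlap (log2 difference 0.39 and 0.58), but neither was called as deposited. HEY1 and DLX3, which missed the mean of 1 FPKM, were at 1.31 to 1.36 FPKM in the WT libraries and at 0.165 to 0.686 FPKM in the TXNDC9-KO libraries. RUNX2, also untested, went the other way, from 0.0925 and 0.187 FPKM to 0.272 and 0.229 FPKM.

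Among the regulators of hepcidin, which overlap with the genes of iron sensing, 1 of 14 tested genes fell and 6 rose, as many as under TPM. TFR2, the hepatocyte transferrin sensor, was at 4.96 and 5.08 FPKM in WT and at 4.17 and 3.59 FPKM in TXNDC9-KO (log2 difference −0.37, standard error 0.14), and TMPRSS6, a liver protease that restrains the pathway, did not exceed 0.0312 FPKM. HFE (1.599), IL6ST (1.66) and IL6R (1.34) rose on the log2 scale, and SPINT2, a protease inhibitor, fell by 2.05. After the correction, 0 genes of this list were called, and the values were 0.96 for HFE, 0.52 for IL6ST, 0.99 for IL6R and −1.44 for SPINT2.

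The TGF-beta branch, which shares SMAD4 and the inhibitory SMADs with the BMP branch, showed both directions as deposited. Under TPM 0 of its genes were called lower, where only 447 of all 13246 tested genes were. Of 8 tested ligands and receptors, TGFB1 fell by 1.47 on the log2 scale, while TGFBR2 and TGFBR3 rose by 1.44 and 1.58. Under TPM 0 of these 8 genes were called lower and 4 higher, with TGFB1 at −0.80, and after the correction 0 lower and 1 higher. Of 11 tested TGF-beta target genes, TGFBI fell from 12.7 and 25.5 FPKM to 6.66 and 4.73 FPKM. CCN2 (also called CTGF) rose from 7.37 and 7.14 FPKM to 20.2 and 19.9 FPKM, and THBS1 from 3.49 and 3.47 FPKM to 9.005 and 9.18 FPKM. For the targets, 0 were called lower and 5 higher under TPM, with TGFBI at −0.99, and 0 lower and 2 higher after the correction. Only TGFBR2 and CCN2 among these 6 were still called after the correction. The other target called higher there was CDKN1A (1.18, and 1.31 under TPM), which was not called as deposited (0.63). Markers of endothelial, stromal and immune cells summed to 58.1 and 56.0 FPKM in the WT libraries and to 48.7 and 45.2 FPKM in the TXNDC9-KO libraries. Of these 11 markers, 6 were tested and 2 rose, CDH5 from 0.751 and 1.07 FPKM to 4.26 and 3.14 FPKM and PDGFRB from 1.08 and 0.735 FPKM to 3.004 and 2.62 FPKM. The collagen genes that make up most of the sum were not called, with COL1A1 at 31.5 and 22.8 FPKM in WT and 20.7 and 17.5 FPKM in TXNDC9-KO, and COL3A1 at 19.4 and 24.004 FPKM in WT and 13.4 and 13.1 FPKM in TXNDC9-KO. The log2 difference was −0.39 for DCN and 0.58 for CD68, neither of them called, but CD68 was called higher under TPM (1.26) and after the correction (1.21). The other 5 markers, among them the endothelial genes PECAM1 and VWF and the leukocyte gene PTPRC, did not reach a mean of 1 FPKM. The part of these markers in the results above was not tested.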

How the data were processed

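Per the labels and the methods of the study, the authors mapped reads of polyadenylated RNA to hg38 with TopHat2, using an Ensembl annotation, and deposited FPKM per gene and library from Cuffdiff. Not given in the sources used here are tool versions, library scaling and whether counting used strand. The authors' columns of averages, fold changes, p-values and q-values were not used. The identifiers stood on other lines than their symbols. Genes were therefore found by symbol, and the identifiers, put back in order, gave length and GC content from GENCODE release 44 (56935 of 57979 found). In that release the reordered identifier had the symbol of its line on 34949 lines, against 1 line before reordering.

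log2(FPKM + 0.1) was fitted with limma 3.58.1 in R 4.3.3 over the 13246 genes with a mean above 1 FPKM. The prior variance followed a trend with expression, and p-values were adjusted by Benjamini-Hochberg. Genes were called at an adjusted p under 0.01 and at least 2-fold. Fold changes on this scale understate those of low genes. No step worth 1 read was found among low values, where at most 4.53% of genes in a pair of libraries shared a log2 ratio. For the length and GC correction, loess curves with a span of 0.3 were fitted library by library. The 10 genes, the lists and the motifs were chosen with earlier results of these data known. Named from each list were all called genes, or the 3 largest rises and falls where over 6 were called, besides genes fixed by name. HEY1, DLX3, TBX3, PRDM1, RUNX2, BMP4, BMP8B, ENG, CDKN1A, PPM1A, USP15, AFP and the other named cell type markers were chosen after their values were seen. The steps were tested on simulated data. Promoter sequences are from RefSeq and hg38 (GRCh38.p14 in the table), and all 10 genes matched. A marker gene and a sequence are not reported here.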

Additional observations from a re-analysis of the deposited data

How the results depend on the processing

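ID1, ID2, ID3, SMAD6 and ATOH8 were called lower under every setting tried except leaving out a TXNDC9-KO library. Leaving out each library in turn gave 0 to 5 of the 10 genes called lower and 0 higher. It gave 0 to 2633 genes called lower and 0 to 2136 higher over the whole table, and 0 to 12 lower and 0 to 26 higher in the pathway lists. The counts of 0 came from limma without TXNDC9-KO replicate 1 or 2, where the lone library is assumed to vary like the WT libraries and the smallest adjusted p-values were 0.0160 and 0.0232. At an unadjusted p under 0.05 and 2-fold, 2022 and 2290 genes were then lower, 2066 and 1973 higher, and 5 of the 10 genes lower. The log2 differences of these 5 moved little, for example between −3.57 and −3.29 for ID1.

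Rescaling to TPM gave 447 genes lower and 4380 higher over the whole table (90.7% of calls higher, against 48.3%), and 2 lower and 40 higher in the pathway lists. The correction for length and GC content gave 969 lower and 841 higher, and 6 and 7 in the lists. With the replicate block added it gave 975 and 841, and 6 and 7. A filter at a mean above 5 FPKM, which tests fewer genes, gave 1220 higher, and 7 lower in the lists. The replicate block alone gave 2146 lower and 1960 higher genes, and the deviations of same-numbered libraries correlated at −0.0904, so the numbers did not pair them. BMP2 changed sign to −0.10 after median centring and without WT replicate 2 (−0.10, where leaving out single libraries gave −0.10 to 0.19). TFR2 changed sign to 0.30 under TPM and to 0.20 after the correction, with and without the replicate block. The counts that follow cover only the pathway genes named by the rule above or fixed by name. Genes chosen after their values were seen are not in them, and some of those, such as PPM1A and CDKN1A, gained a call. Of the other values for the covered genes, 368 kept the status of the main fit, called or not called, while 126 lost a call and 1 gained it. Each of the 10 genes had 1 line, so summing repeated lines was not run. With 2 libraries in each group, no outlying library could be tested for.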
